A study of Mus musculus with 14 samples.

Results

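The genes described here are 10 integrin subunits of leukocytes, chosen by name and matched by gene identifier out of 21761 genes in the deposited count tables: Itgam, Itgax, Itgad, Itgal and Itgb2, which make the β2 integrins, Itga4, Itgb1 and Itgb7, which make the α4 integrins, and Itgav and Itgb5, which pair as αvβ5. All 10 had exon counts and all 10 passed the filter on low exon counts, while 9 of 10 passed it for intron counts. No non-gene region in the tables carried the name of any of these genes, and 0 of the 1107 regions overlapped one of them. The measured cells were mouse bone marrow-derived macrophages of the FVB/Hsd strain on day 7 of differentiation, untreated, infected with a retrovirus carrying a short hairpin RNA and selected with puromycin. The knockdown group had 2 libraries, 1 each from the Wdr82 hairpins sh1137 and sh830, and the control group had 2 libraries of a scrambled hairpin. Wdr82 is a subunit of SET1 histone methyltransferase complexes and of a PP1 phosphatase complex. The series has 14 samples, of which 10, among them all lipopolysaccharide-treated, Menin-knockdown and 4-thiouridine-labelled ones, were not analysed here. Every library came from infected and selected cells, the knockdown libraries differ in hairpin, and no label says that libraries came from separate cultures or animals. The p-values therefore measure the spread between these libraries, which may be technical.

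Integrins are membrane receptors made of 1 α and 1 β subunit that bind matrix proteins, other cells or complement-coated particles after signals from inside the cell switch them to an active shape. On macrophages the β2 integrins are known for firm adhesion, spreading and uptake: αM with β2 is complement receptor 3, αX with β2 is complement receptor 4, αL with β2 is LFA-1, which binds ICAM proteins, and αD with β2 is found on subsets of tissue macrophages. The genes Itgam, Itgax and Itgad lie head to tail on chromosome 7.

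In the deposited mm9 annotation Itgam spans chr7:135206154-135271674, Itgax chr7:135273082-135294171 and Itgad chr7:135298126-135349017, all on the plus strand. The gap between Itgam and Itgax is 1408 bp and that between Itgax and Itgad 3955 bp, and the 3 genes fill 142864 bp from the first base of Itgam to the last of Itgad. Itgal lies on the same chromosome and strand at chr7:134439862-134477412, with 728742 bp between its end and the start of Itgam. The other 6 genes are on other chromosomes: Itgb2 at chr10:76993093-77028419, Itga4 at chr2:79095583-79173271, Itgav at chr2:83564554-83647073, Itgb1 at chr8:131209554-131257479, Itgb7 on the minus strand at chr15:102046426-102062366 and Itgb5 at chr16:33829751-33949424.

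The 250 bases before the start of Itgam, Itgax and Itgb5 are shown because Itgax and Itgb5 rose with knockdown and Itgam, the neighbour of Itgax, did not pass the test. They are RefSeq windows of the GRCm38.p6 build, all on the plus strand, and entries were found for 7 of the 10 genes. Capitals mark matches on either strand to GAGGAA, the core of the site of the myeloid factor PU.1, and to GGGCGG, the core of an Sp1 site (read as TTCCTC and CCGCCC on the other strand). No 2 matches overlap.
Itgam, chr7:128062390-128062639: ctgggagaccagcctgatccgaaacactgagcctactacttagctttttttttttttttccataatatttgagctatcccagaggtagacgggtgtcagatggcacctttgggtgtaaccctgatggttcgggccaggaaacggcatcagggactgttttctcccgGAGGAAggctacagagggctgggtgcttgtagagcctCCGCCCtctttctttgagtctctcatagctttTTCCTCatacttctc
Itgax, chr7:128129300-128129549: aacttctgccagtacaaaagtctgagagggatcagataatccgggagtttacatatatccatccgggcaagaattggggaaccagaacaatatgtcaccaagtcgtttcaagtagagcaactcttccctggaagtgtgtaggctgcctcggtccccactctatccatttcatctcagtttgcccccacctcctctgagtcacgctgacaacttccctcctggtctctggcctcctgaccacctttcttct
Itgb5, chr16:33829415-33829664: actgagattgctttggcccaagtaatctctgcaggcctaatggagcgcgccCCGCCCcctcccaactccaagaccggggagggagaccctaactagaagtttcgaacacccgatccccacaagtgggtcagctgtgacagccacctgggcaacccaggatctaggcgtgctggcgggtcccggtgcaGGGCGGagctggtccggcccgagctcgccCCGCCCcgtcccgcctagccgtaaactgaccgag
The Itgam window held GAGGAA beginning 84 bases before the start and, on the other strand, at 15 bases, with GGGCGG on the other strand at 47 bases. The Itgb5 window held GGGCGG at 199, 63 and 34 bases before the start and no GAGGAA, and the Itgax window held neither. Among the 7 windows, 3 held GAGGAA, 4 held GGGCGG and 0 held TATAAA, against 23.3%, 32.7% and 12.4% of 32851 RefSeq windows of that length. These are letter matches only.

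The knockdown was checked first. Wdr82 stood at 25.1 CPM in sh1137 and 40.7 CPM in sh830, against 100 CPM in scrambled 1 and 144 CPM in scrambled 2, where CPM is exon counts scaled to 1e6 per library after TMM scaling. It fell by 1.91 ± 0.094 (SE) on the log2 scale, with an edgeR adjusted p of 0.0022. Exon counts in genes numbered 34787556 and 43372731 in sh1137 and sh830, against 40074419 and 42635790 in scrambled 1 and 2. Introns held 44.2% and 15.2% of exon plus intron counts in sh1137 and sh830, against 40.4% and 14.6% in scrambled 1 and 2. Counting error on these shares is small, with a 95% Wilson interval from 44.14% to 44.17% in sh1137. The libraries thus fell into an intron-rich pair (sh1137, scrambled 1) and an intron-poor pair (sh830, scrambled 2) that crossed the groups. This split is not in the labels. It was entered as a term in the fits, which leaves 1 residual degree of freedom, and differences within each pair are given beside the fitted values. Without that term edgeR called 0 of 13884 genes as risen and 0 as fallen; 437 genes were above and 209 below at p under 0.05 before adjustment. DESeq2 without it called 152 genes higher and 22 lower.

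Per length of exon, the 10 genes differed widely in level. Levels are given as RPKM, CPM per kilobase of exon, as mean ± SD with n = 2 per group. Itgb1, the β subunit shared by many matrix receptors, stood at 236 ± 49.4 RPKM in knockdown and 248 ± 0.430 RPKM in scrambled libraries. Itgb2, the common β2 chain, stood at 265 ± 9.58 and 238 ± 7.53 RPKM in knockdown and scrambled libraries. Itgam followed at 189 ± 3.96 RPKM in knockdown and 172 ± 12.6 RPKM in scrambled libraries, and Itgb5 at 104 ± 8.90 and 72.8 ± 2.40 RPKM. These genes kept their places in the scrambled libraries without overlap of their ranges, whereas in knockdown libraries Itgb2 led and its range overlapped that of Itgb1. A middle group followed. Itgav averaged 25.9 RPKM in knockdown and 25.4 RPKM in scrambled libraries, and Itgb7 averaged 19.3 and 20.2 RPKM in the same order. Itgal averaged 23.1 RPKM in knockdown and 14.7 RPKM in scrambled libraries, and Itga4 averaged 8.91 and 8.66 RPKM. In scrambled libraries each of Itgav, Itgb7, Itgal and Itga4 overlapped its neighbour in the order, so their order there is within the spread. Itgax at 3.07 and 1.56 RPKM and Itgad at 0.574 and 0.124 RPKM in knockdown and scrambled libraries were the lowest of the 10 in both groups.

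**Figure D1:**
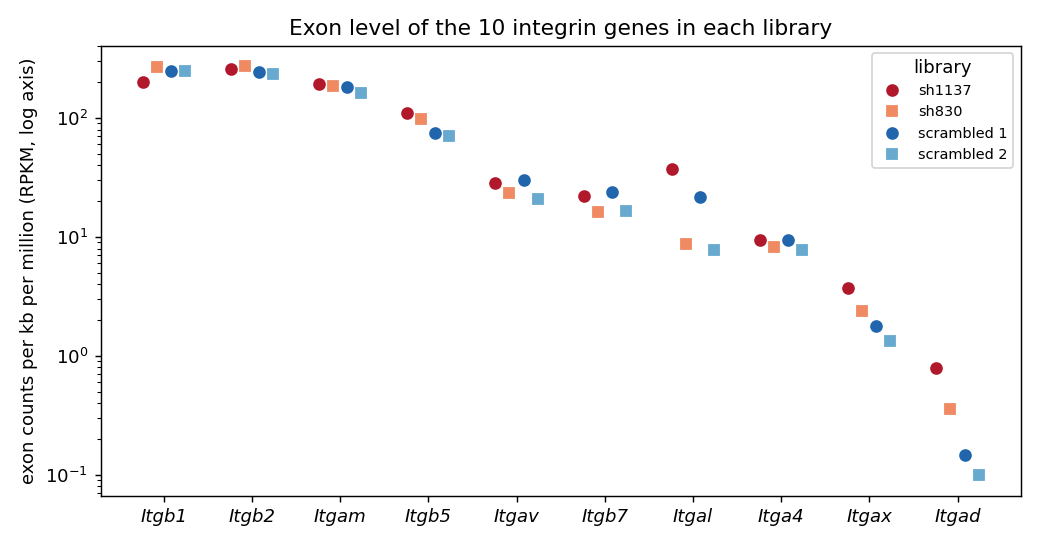
Exon level (RPKM, log axis) of the 10 integrin genes in each library, ordered by the scrambled mean; red and orange points are the Wdr82-knockdown libraries sh1137 and sh830, blue points scrambled 1 and 2. Itgax, Itgad and Itgb5 had both knockdown points above both scrambled points by the widest margins, while the Itgal points split by library pair.

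Of the 10 genes, 3 rose in exon counts with Wdr82 knockdown and 0 fell: Itgax and Itgad of the chromosome 7 cluster and Itgb5. Across all 13884 genes tested the same rule called 6.06% higher and 7.79% lower. Before adjustment, 4 of the 10 genes were higher and 0 lower at p under 0.05 by edgeR, against 1951 and 2530 of the 13884. DESeq2 with the same terms, which called 5.47% of all genes higher and 6.71% lower, called 3 and 0 of the 10. With the group term alone, under which DESeq2 called 1.09% of all genes higher and 0.158% lower, neither tool called any of the 10. By edgeR 1 of them was then higher at an unadjusted p under 0.05, against 437 of the 13884. The median log2 fold change was 0.15 over the 10 genes and -0.01 over all genes. Both knockdown libraries lay above both scrambled libraries for 5 of the 10 genes (Itgam, Itgax, Itgad, Itgb2 and Itgb5), against 15.7% of all genes, and below them for 0, against 15.7% of all genes. With 2 libraries a group, the smallest p an exact permutation test could give is 0.33.

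**Figure D2:**
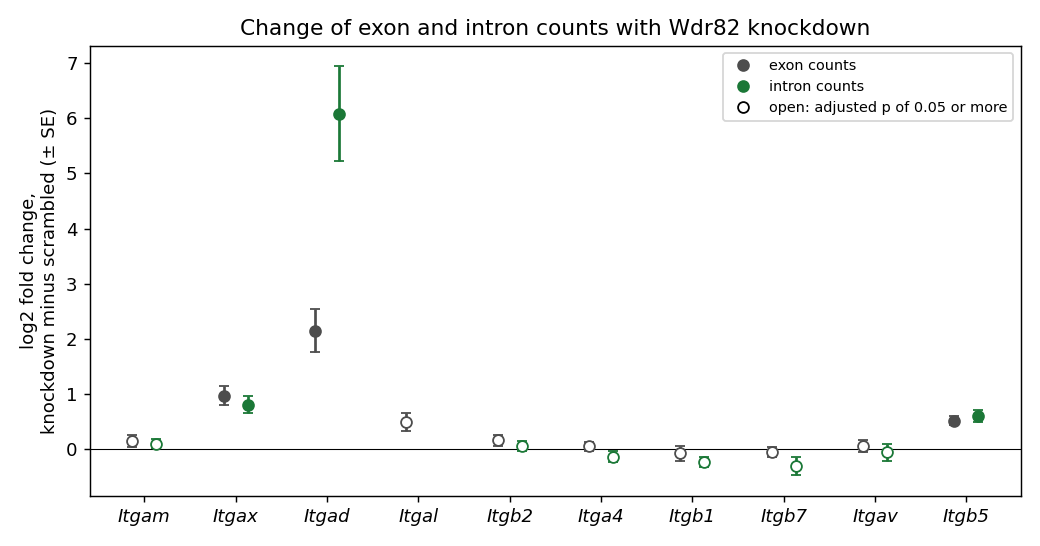
Fitted log2 fold change, knockdown minus scrambled, with its SE, for exon counts (grey) and intron counts (green) of each gene; filled points have an adjusted p under 0.05. Itgax, Itgad and Itgb5 were filled in both, though Itgad introns passed the filter on low counts only through the knockdown libraries; Itgal has no intron point because its intron counts were 0, and the intron value of Itgad depends on the prior count added to scrambled counts of 1 and 0.

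Itgam encodes αM, also called CD11b, the α chain that defines macrophages in many sorting schemes. Its exon counts were 45037 in sh1137 and 49238 in sh830, against 46305 in scrambled 1 and 40688 in scrambled 2, which after scaling made 1202 and 1167 CPM against 1132 and 1021 CPM. The groups did not overlap, and their means differed by less than the scrambled libraries did from each other. The log2 fold change was 0.14 ± 0.11 (SE) and did not pass (edgeR adjusted p = 0.41). Within pairs sh1137 exceeded scrambled 1 by 0.09 and sh830 exceeded scrambled 2 by 0.19 on the log2 scale.

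Itgax encodes αX, also called CD11c, which in mouse is highest on dendritic cells and alveolar macrophages and low on most other macrophages. It had 605 and 436 exon counts in sh1137 and sh830, against 315 and 228 in scrambled 1 and 2. After scaling these made 16.1 and 10.3 CPM in the knockdown libraries, against 7.70 and 5.72 CPM in the scrambled ones. The groups did not overlap, and in each group the intron-rich library was the higher one. Itgax rose by 0.96 ± 0.17 (SE) on the log2 scale, with an edgeR adjusted p of 0.024, while the group term alone gave 0.98 ± 0.38 with an adjusted p of 0.71, and of 0.37 or more with any 1 library left out as well. The difference was 1.02 within the intron-rich pair and 0.80 within the intron-poor pair.

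Itgad encodes αD, also called CD11d, which is known from human cells to bind VCAM1. It was the lowest of the 10 genes, with 127 and 65 exon counts in sh1137 and sh830, against 26 and 17 in scrambled 1 and 2. That is 3.39 and 1.54 CPM in knockdown libraries, against 0.636 and 0.427 CPM in scrambled libraries. The groups did not overlap, and the knockdown libraries differed from each other by more than the scrambled ones did. Its log2 fold change of 2.15 ± 0.39 (SE) was the largest of the 10 genes and passed (edgeR adjusted p = 0.026), while the group term alone gave 2.21 ± 0.69 with an adjusted p of 0.59, and of 0.17 or more with any 1 library left out as well. Pooled over libraries, 192 knockdown counts against 43 scrambled counts gave a depth-scaled ratio of 4.53, with an exact 95% interval from 3.24 to 6.46 that covers counting error only. On the log2(CPM + 0.5) scale, which understates the change of so low a gene, the pairs differed by 1.78 and 1.14. Whether Itgam, Itgax and Itgad differ from each other in their change was not tested. The last 69 exon bases of Itgad overlap Cox6a2 on the opposite strand, which had 25 and 14 counts in sh1137 and sh830, against 6 and 8 in scrambled 1 and 2. Of genes whose exons lie wholly inside exons of another gene on the opposite strand, 22 of 22 had 0 exon counts. Among genes whose exons share no base with another gene, that was so for 20.4%. Exon bases shared by genes were thus not counted.

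**Figure D3:**
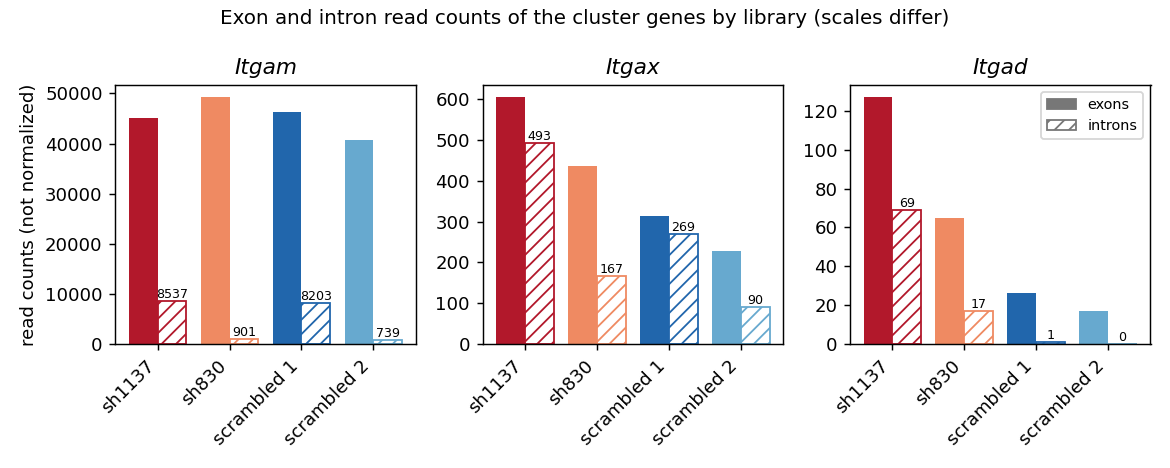
Read counts, not normalized, over exons (solid bars) and introns (hatched bars, values printed) of Itgam, Itgax and Itgad in each library; each panel has its own scale from 0. Itgam bars are alike across groups, Itgax exon bars run from 228 to 605, and Itgad had 69 and 17 intron counts in the knockdown libraries against 1 and 0 in the scrambled ones.

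Intron counts, which read unspliced RNA, could be tested for 9 genes. Itgad introns passed the filter on low counts only through the knockdown libraries and are described apart. Of the others Itgax and Itgb5 rose and 0 fell, where the rule called 5.97% of 12405 genes higher and 3.93% lower. Itgb1 introns were lower at an unadjusted p under 0.05, as were those of 1676 of the 12405 genes. DESeq2 with the same terms, which called 4.54% of all genes higher and 2.51% lower, called Itgb5 and none lower, with an adjusted p of 0.10 for Itgax. Without the library term edgeR called none of the 9, and DESeq2, which then called 1.27% of all genes higher and 0.0645% lower, called neither Itgax nor Itgb5. The edgeR adjusted p was 0.67 or more for Itgax and Itgb5 with 1 library, whichever it was, left out as well. The introns of Itgam took 354 and 99.0 CPM in sh1137 and sh830, against 346 and 90.4 CPM in scrambled 1 and 2. They were higher in the intron-rich library of each group, by more than the groups differed, and the log2 fold change was 0.08 ± 0.091 (SE; edgeR adjusted p = 0.63). Itgax introns held 493 and 167 counts in sh1137 and sh830, or 20.5 and 18.4 CPM, against 269 and 90 counts in scrambled 1 and 2, or 11.4 and 11.01 CPM. Their groups did not overlap, and they rose by 0.80 ± 0.16 on the log2 scale (edgeR adjusted p = 0.030), next to 0.96 for the exons.

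Itgad introns held 69 counts in sh1137 and 17 in sh830, against 1 in scrambled 1 and 0 in scrambled 2. The 0 allows up to 0.367 intron CPM (3 counts). Nearly all intron reads of the gene thus came from the knockdown libraries, although scrambled 1 is nearly as deep in introns as sh1137. The depth-scaled ratio, pooled over libraries, was 82.6, with an exact 95% interval from 14.4 to 3299 that covers counting error only. Having passed the filter only through the knockdown libraries, the introns had to be higher there among tested genes, so the fit supports nothing beyond these counts. It gave an edgeR adjusted p of 0.012, and the group term alone 0.27. With the group term alone and 1 library left out, the adjusted p ranged from 0.0052, without sh830, to 0.32.

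The interaction of group and interval type asks whether introns changed by another amount than exons. Apart from Itgad, it passed for 0 of the genes with intron counts, and 0 of those had an unadjusted p under 0.05, where it called 2.19% of 11772 genes for introns above exons and 1.46% for introns below exons. Itgad intron density was 5.0% of its exon density in sh1137 and 2.41% in sh830, against 0.354% in scrambled 1 and 0 in scrambled 2. The edgeR adjusted p for Itgad was 0.043, under the same limit of the filter, and the call was lost under each alternative run, with an adjusted p from 0.066 with DESeq2 size factors to 1 with a scrambled library left out. Itgax intron density was 20.9% and 9.84% of exon density in sh1137 and sh830, against 21.9% and 10.1% in scrambled 1 and 2. It followed the library pair, and the fitted difference between intron and exon change was -0.17 ± 0.22 (SE; edgeR adjusted p = 0.80). At 9.84% or more in each library, Itgax had the highest intron density relative to exons of the 9 genes with intron counts, and Itgam stood between 0.192% and 2.00%.

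Around the cluster, 10 other genes lay within 100 kb, of which 9 were tested and 0 passed in either direction. At an unadjusted p under 0.05, 1 of these was higher and 3 were lower by edgeR, against 1951 and 2530 of all 13884 genes. DESeq2 with the same terms called 0 and 0 after adjustment, and before it 0 were higher and 1 lower. Upstream of Itgam, Pycard, the inflammasome adaptor ASC, stood at -0.41 on the log2 scale (edgeR adjusted p = 0.054). Trim72 had a value of 0.29 on counts between 10 and 17 in each library. Downstream of Itgad the values were 1.45 ± 0.64 (SE) for Cox6a2, a muscle cytochrome oxidase subunit, with an edgeR adjusted p of 0.17, and 1.84 ± 0.48 for Tgfb1i1, the focal adhesion protein Hic-5, with an adjusted p of 0.055. Cox6a2 passed the filter on low counts only through the knockdown libraries, so among tested genes it had to be higher there. Tgfb1i1 rested on 74 and 21 counts in sh1137 and sh830, against 19 and 7 in scrambled 1 and 2, and sh830, at 0.498 CPM, lay close to scrambled 1, at 0.465 CPM. Further genes downstream were 9130023H24Rik at 0.50, Armc5 at 0.40, Slc5a2 at 0.07 and Rusf1 at -0.38, none of which passed.

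Non-gene regions, which the authors listed from a comparison of hairpin with vector libraries, lay within 100 kb of only 3 of the 10 genes, the cluster itself. These 2 regions were looked at after their values were seen. The region named for the start of Cox6a2, at chr7:135356000-135363499, had 104 and 12 counts in sh1137 and sh830, against 18 and 7 in scrambled 1 and 2, and a log2 fold change of 1.93 ± 0.62 (SE; edgeR adjusted p = 0.091). The region named for the end of 9130023H24Rik had 118 and 29 counts in sh1137 and sh830, against 21 and 14 in scrambled 1 and 2, with 1.88 ± 0.54 (edgeR adjusted p = 0.072). Neither passed. Of all 1070 regions tested, 54.6% were called higher, regions that had been chosen on such a comparison.

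**Figure D4:**
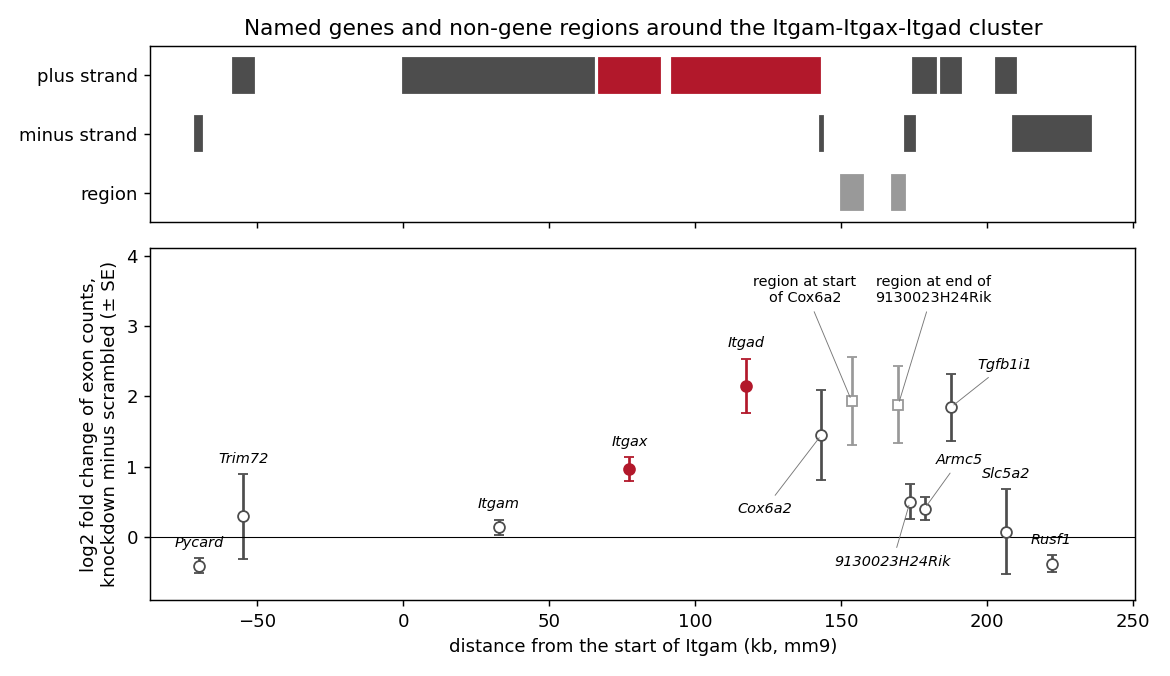
Top, genes named in the text by strand and non-gene regions around the cluster, by distance from the start of Itgam (kb, mm9); bottom, log2 fold change of exon counts, knockdown minus scrambled, with its SE, at the middle of each. Itgax and Itgad (red, filled) passed; Itgam, the other genes shown and both regions (open) did not.

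Itgb2 encodes the β chain that αL, αM, αX and αD share, and without which they do not reach the surface. It stood at 764 and 804 CPM in sh1137 and sh830, against 720 and 688 CPM in scrambled 1 and 2. The groups did not overlap, but the log2 fold change of 0.16 ± 0.10 (SE) did not pass (edgeR adjusted p = 0.34). Its introns, with a fitted difference of 0.06, did not pass either (edgeR adjusted p = 0.74).

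Itgal encodes αL, the α chain of LFA-1. Its level followed the library pair more than the group: 150 CPM in sh1137 and 34.9 CPM in sh830, against 86.5 CPM in scrambled 1 and 31.2 CPM in scrambled 2. The groups overlapped, and scrambled 1 exceeded scrambled 2 by 1.46 on the log2 scale, more than any of the other 9 genes did. The difference was 0.79 within the intron-rich pair and 0.16 within the intron-poor pair, and the fitted log2 fold change of 0.49 ± 0.16 (SE) did not pass (edgeR adjusted p = 0.097).

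Itgal introns had 0 counts in each library. In the annotation they lie wholly within an intron of Zfp553 on the same strand, whose listed span is chr7:134376769-134776537. Of the expressed genes, Itgal among them (1000 exon counts or more over the 4 libraries) whose introns lie wholly inside those of another gene, 69 of 69 on the same strand and 68 of 68 on the opposite strand also had 0 intron counts. Among genes whose introns share no base with another gene, that was so for 12 of 8843, or 0.136%. Intron bases shared by genes were thus not counted, whichever the strand, and the 0 of Itgal says nothing of its unspliced RNA.

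Setting the RPKM values of the 4 α chains against each other shows the make-up of the β2 partners at the RNA level. Itgam made up 82.1% and 94.2% of their sum in sh1137 and sh830, against 88.5% and 94.7% in scrambled 1 and 2. Itgal made up 16.0% and 4.39% in sh1137 and sh830, against 10.5% and 4.51% in scrambled 1 and 2. Itgax made up 1.60% and 1.21% in sh1137 and sh830, against 0.874% and 0.770% in scrambled 1 and 2. Itgad made up 0.337% and 0.181% in sh1137 and sh830, against 0.0725% and 0.0577% in scrambled 1 and 2. The Itgam and Itgal shares overlapped between the groups, and the Itgax and Itgad shares did not, while staying a small part of the sum. Itgam RNA outnumbered Itgax RNA by 51.3 and 77.8 times in sh1137 and sh830, against 101 and 123 times in scrambled 1 and 2. The sum of the α chains was 0.906 and 0.728 of Itgb2 in sh1137 and sh830, against 0.840 and 0.740 in scrambled 1 and 2.

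Itga4 encodes α4, which pairs with β1 to bind VCAM1 and fibronectin and with β7 to bind MAdCAM1, and none of these 3 chains passed in either direction. Itga4 stood at 123 and 107 CPM in sh1137 and sh830, against 122 and 101 CPM in scrambled 1 and 2, with a log2 fold change of 0.04 ± 0.083 (SE; edgeR adjusted p = 0.75). Its last exon bases overlap Cerkl on the opposite strand by 166 bp, and such shared bases were not counted. Itgb7 stood at 59.7 and 43.5 CPM in sh1137 and sh830, against 64.1 and 44.1 CPM in scrambled 1 and 2, with -0.06 ± 0.089 (edgeR adjusted p = 0.67). Both genes were higher in the intron-rich library of each group, by more than the groups differed.

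Itgb1 differed between the knockdown libraries, where hairpin and library pair cannot be told apart. It stood at 861 CPM in sh1137 and 1160 CPM in sh830, against 1059 and 1061 CPM in scrambled 1 and 2, so the knockdown libraries lay on either side of the scrambled ones. The log2 difference was -0.30 within the intron-rich pair and 0.13 within the intron-poor pair, and the fitted value of -0.09 ± 0.14 (SE) did not pass (edgeR adjusted p = 0.70). Its introns stood at 325 and 288 CPM in sh1137 and sh830, against 403 and 325 CPM in scrambled 1 and 2, with -0.24 ± 0.093 (edgeR adjusted p = 0.15). Introns of Itga4 (-0.14) and Itgb7 (-0.31) did not pass either.

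Itgav and Itgb5 encode the chains of αvβ5, a receptor for vitronectin and for MFG-E8, a bridging protein in the uptake of apoptotic cells. Itgb5 passed the test and Itgav did not, and the difference between them was not tested. Itgb5 had 13574 and 13543 exon counts in sh1137 and sh830, against 10005 and 9309 in scrambled 1 and 2, or 362 and 321 CPM against 245 and 234 CPM. The groups did not overlap, and the libraries within a group differed by less than the groups did. Itgb5 rose by 0.51 ± 0.089 (SE) on the log2 scale (edgeR adjusted p = 0.024), while the group term alone gave an adjusted p of 0.75, and of 0.83 or more with any 1 library left out as well. The difference was 0.57 within the intron-rich pair and 0.46 within the intron-poor pair. Its introns, at 248 and 150 CPM in sh1137 and sh830, against 147 and 111 CPM in scrambled 1 and 2, rose by 0.60 ± 0.11 (SE; edgeR adjusted p = 0.024). Exon and intron changes of Itgb5 did not differ past the threshold (0.09 ± 0.11, edgeR adjusted p = 0.80).

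Itgav stood at 273 and 228 CPM in sh1137 and sh830, against 291 and 201 CPM in scrambled 1 and 2. The groups overlapped, and the log2 fold change was 0.05 ± 0.10 (SE; edgeR adjusted p = 0.78). Per length, Itgav over Itgb5 was 0.256 and 0.241 in sh1137 and sh830, against 0.403 and 0.292 in scrambled 1 and 2. The ratio was lower in both knockdown libraries.

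**Figure D5:**
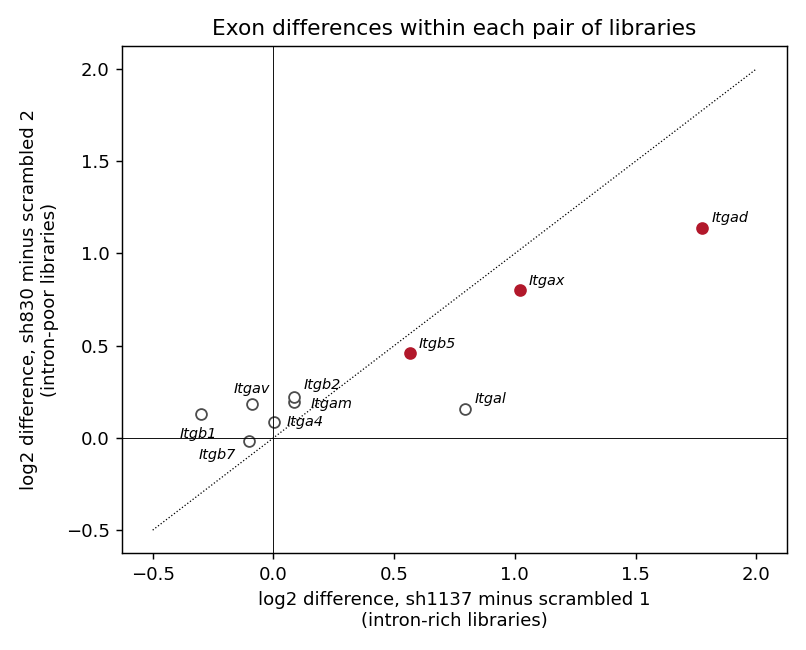
Difference in log2(CPM + 0.5) of exon counts for each gene, sh1137 minus scrambled 1 (intron-rich libraries) on the x axis and sh830 minus scrambled 2 (intron-poor libraries) on the y axis; the dotted line marks equal values and filled points passed. Itgad, Itgax and Itgb5 lie highest on both axes but for Itgal, which exceeds Itgb5 on the x axis only; the other 6 lie within 0.30 of 0.

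The nearest gene on each side of the 10 that did not overlap them gave 20 positions. Of these, 4 held a gene that rose, 0 one that fell, 13 one that did not pass and 3 one that was not tested. Cox6a2, Zfp553 and Cerkl, which overlap Itgad, Itgal and Itga4, were passed over. Over all genes tested, 6.06% rose and 7.79% fell. Itgax, counted at 2 of the 4, and Itgad, counted at 1, are neighbours within the cluster. The fourth was Rarg, retinoic acid receptor γ, which ends 3005 bp upstream of Itgb7 on the same strand. Rarg stood at 26.7 and 24.2 CPM in sh1137 and sh830, against 11.5 and 12.7 CPM in scrambled 1 and 2, and rose by 1.07 ± 0.13 (SE; edgeR adjusted p = 0.013). Itgb7 itself did not pass. Downstream of Itgb5, Umps stood at -0.27 on the log2 scale (edgeR adjusted p = 0.14), and Muc13, upstream of it, was not tested for low counts.

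The other 17 integrin subunits were described from a list. Of these 15 were tested, 2 rose and 0 fell, with a median log2 fold change of 0.57 next to -0.01 for all genes, of which 6.06% rose and 7.79% fell. Most of the tested subunits were low. The median was the value of Itga11, at 3.07 and 1.11 CPM in sh1137 and sh830, against 3.11 and 0.426 CPM in scrambled 1 and 2. The subunits with the highest levels went both ways, with -0.17 for Itga5, 0.28 for Itga6, 0.83 for Itga8 and -0.39 for Itga9. Itga7, which counts in this median, had 19 and 15 counts in sh1137 and sh830, against 9 and 2 in scrambled 1 and 2. It passed the filter on low counts only through the knockdown libraries, so among tested genes it had to be higher there. DESeq2 with the same terms called 1 and 0 of the 15, and neither tool called any with the group term alone. At an unadjusted p under 0.05, 4 of the 15, Itga7 among them, were higher and 1 lower by edgeR, against 1951 and 2530 of all 13884 genes. Itga8, an RGD-binding α chain, stood at 101 and 152 CPM in sh1137 and sh830, against 69.7 and 69.8 CPM in scrambled 1 and 2, and rose by 0.83 ± 0.15 (SE; edgeR adjusted p = 0.027). Itga3, a laminin-receptor chain, stood at 0.854 and 3.39 CPM in sh1137 and sh830, against 0.342 and 0.477 CPM in scrambled 1 and 2 (2.14 ± 0.52, edgeR adjusted p = 0.048). The level of Itga3 in sh830 was well above that in sh1137, which lay close to the scrambled ones.

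Of 34 listed genes that activate integrins or link them to the cytoskeleton, 33 were tested, 2 rose and 3 fell, with a median of -0.13. These counts are near the 6.06% and 7.79% called over all genes, and neither tool called any with the group term alone. Cyth1, cytohesin-1, known from human cells to bind the β2 tail, stood at 82.9 and 102 CPM in sh1137 and sh830, against 68.3 and 70.6 CPM in scrambled 1 and 2 (0.40, edgeR adjusted p = 0.049). Parva, α-parvin, rose to 3.51 CPM in sh830 and stood at 0.0534 CPM in sh1137, against 0 in scrambled 1 and 0.452 CPM in scrambled 2 (edgeR adjusted p = 0.030), so it was detected chiefly in the intron-poor pair, whose libraries also held the stromal markers given below. Among those that fell, Apbb1ip, the RAP1 effector RIAM, which brings talin to integrins, stood at 164 and 49.8 CPM in sh1137 and sh830, against 206 and 74.9 CPM in scrambled 1 and 2 (-0.46, edgeR adjusted p = 0.037). The groups overlapped, and within each library pair the knockdown library was the lower one.

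Of 29 ligands and partner proteins 21 were tested, 5 rose and 0 fell, with a median of 0.58, next to 6.06% risen and 7.79% fallen over all genes. Some values behind this median came from the intron-poor pair. The log2 differences within the intron-rich and intron-poor pairs were -0.14 and 2.75 for Fn1 and 0.09 and 2.12 for Ltbp1. For others they were alike, as with 0.84 and 1.00 for Mfge8. Lrrc32, among the 5 that rose, had 10 and 84 counts in sh1137 and sh830, against 3 and 7 in scrambled 1 and 2. It passed the filter on low counts only through the knockdown libraries, so among tested genes it had to be higher there. At an unadjusted p under 0.05, 9 of the 21 were higher and 1 lower by edgeR, against 1951 and 2530 of all 13884 genes. DESeq2 with the same terms called 4 and 0, next to 5.47% and 6.71% of all genes. Without the library term 0 of the 21 passed by edgeR in either direction and 1, higher, by DESeq2, which then called 1.09% of all genes higher. By edgeR 3 of the 21 were then higher at an unadjusted p under 0.05, against 437 of all genes. C3, the complement protein whose cleaved form is the ligand of αMβ2 and αXβ2, stood at 105 and 177 CPM in sh1137 and sh830, against 40.4 and 39.7 CPM in scrambled 1 and 2, and rose by 1.76 (edgeR adjusted p = 0.010). Mfge8, which encodes the MFG-E8 ligand of αvβ5, stood at 47.8 and 61.5 CPM in sh1137 and sh830, against 26.4 and 30.6 CPM in scrambled 1 and 2, and rose by 0.93 (edgeR adjusted p = 0.0093). For both ligands all knockdown values lay above all scrambled ones.

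Markers of the cell types these cultures could hold were read beside the integrin changes, since Itgax is also used as a marker of dendritic cells. All 10 macrophage markers had counts, and together they made 8939 and 15804 CPM in sh1137 and sh830, against 10714 and 12999 CPM in scrambled 1 and 2. Of these 0 rose and 3 fell, next to 6.06% risen and 7.79% fallen over all genes. Among the 3, Fcgr1 stood at 41.5 and 51.6 CPM in sh1137 and sh830, against 120 and 146 CPM in scrambled 1 and 2, and Cd68 at 342 and 491 CPM, against 654 and 943 CPM. The 7 dendritic cell markers summed to 7.77 and 6.07 CPM in sh1137 and sh830, against 4.33 and 3.06 CPM in scrambled 1 and 2, and 1 of them, Xcr1, rose. Flt3, which dendritic precursors carry, stood at 0.347 and 0 CPM in sh1137 and sh830, against 0.342 and 0.226 CPM in scrambled 1 and 2. Zbtb46 went the other way, with 1.12 and 0.877 CPM in sh1137 and sh830, against 0.611 and 0.251 CPM in scrambled 1 and 2. Fitted log2 fold changes were -1.07 for Flt3, 1.29 for Zbtb46, 0.51 for Ccr7, 0.14 for Cd209a and -0.06 for Siglech. None of these passed, and Clec9a was not tested. The neutrophil markers, 9 of 10 listed in the tables, summed to 210 and 115 CPM in sh1137 and sh830, against 66.98 and 39.7 CPM in scrambled 1 and 2. Mmp8 made up most of this sum, with 181 and 107 CPM in sh1137 and sh830, against 37.3 and 26.0 CPM in scrambled 1 and 2, and was the 1 marker of the list that rose.

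The 6 mast cell and eosinophil markers summed to 19.2 and 11.6 CPM in sh1137 and sh830, against 1.79 and 1.93 CPM in scrambled 1 and 2, of which Ccr3 made nearly all in the knockdown libraries, and Fcer1a was at 0 throughout. T cell markers summed to 6.94 and 5.81 CPM in sh1137 and sh830, against 2.71 and 2.84 CPM in scrambled 1 and 2, and 1 of 6, Lck, rose. B cell markers summed to 3.23 and 2.37 CPM in sh1137 and sh830, against 1.47 and 0.753 CPM in scrambled 1 and 2, with Pax5 at 0. NK cell markers summed to at most 0.403 CPM in any library, with Gzma and Prf1 at 0. Stromal markers summed to 1.87 and 110 CPM in sh1137 and sh830, against 1.03 and 33.1 CPM in scrambled 1 and 2, so they went with the intron-poor pair, and 1 of 5, Col1a1, rose. These calls stand next to 6.06% risen and 7.79% fallen over all genes. The part of any of these cell types in the changes of Itgax, Itgad and Itgb5 was not tested. In bulk RNA, fewer cells of a type and less RNA per cell cannot be told apart.

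Genes were also ranked by how closely their pattern over the 4 libraries matched that of each cluster gene, by Euclidean distance of centred log2(CPM + 0.5) among 12016 genes of at least 1 CPM on average. Nearest to Itgam were Pcf11, a 3' end processing factor, at a distance of 0.020, Kctd6 at 0.020 and Sh3bp5l at 0.026. Nearest to Itgax were Gpc2 at 0.072, Csf2rb, the common β chain of the GM-CSF, IL-3 and IL-5 receptors, at 0.092 and Acvr2b at 0.11. Csf2rb stood at 360 and 228 CPM in sh1137 and sh830, against 171 and 123 CPM in scrambled 1 and 2, a far higher level than Itgax with the same order of libraries; its close copy Csf2rb2 may share its reads. Nearest to Itgad were Pmel at 0.13, Plscr4 at 0.19 and Fbxw10 at 0.22. With 4 libraries such likeness is a description only.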

How the data were processed

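The libraries hold strand-marked, ribosome-depleted total RNA, as the labels' protocols say. What the authors deposited are raw counts per gene over exon intervals and over intron intervals, with an annotation of UCSC mm9 genes and of non-gene regions. That the values are counts follows from their being whole numbers with differing totals. Tools named in the submitters' processing notes are TopHat 1.3.1, SICER and, both at version 2.1.1, Cufflinks and Cuffdiff. The counting tool is not given in the sources used here. The 10 genes and the other lists were chosen with earlier results of these data known, and so was the library term.

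Counts were fitted with R 4.3.3 and edgeR 4.0.16, using gene-based TMM factors, filterByExpr and quasi-likelihood F-tests of group beside a term for intron-rich or intron-poor libraries. Exons of genes and regions were fitted together, introns on their own with their own factors, and intron against exon change as an interaction with a term for each library. Benjamini-Hochberg adjustment of p ran over all features, with a threshold of 0.05, and SE is the log2 fold change over the root of F. The script was tested on counts simulated with that same library term, which cannot show whether the term is right for these libraries. DESeq2 1.42.0 served as an alternative. Symbols were found for 21615 identifiers. Genes named besides the 10 are Wdr82, the nearest genes, genes within 100 kb of the cluster, up to 2 per list and direction that passed with the smallest p, and the 3 nearest patterns of each cluster gene. Markers of cell types are named as well, and so are Lrrc32 and Itga7 for their limit of the filter. Some further listed genes are named beside the medians. Some genes that these rules name are not reported here. Intervals and floors cover counting error only.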

Additional observations from a re-analysis of the deposited data

How the results depend on the processing

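With the group term alone edgeR called 0 exon features, 0 genes in introns and 0 for intron against exon change, against 2506, 1228 and 430 with the library term, and 1065, 708 and 68 at an unadjusted p under 0.05. With the crossed split of libraries the calls were 91, 62 and 0, the last with 33 at an unadjusted p under 0.05. DESeq2 with the group term alone called 455 exon features and 166 genes in introns. For introns, DESeq2 size factors gave 2006 calls, no filter on low counts 2366, and library sizes from the exon counts 1885, of which 81.2% were higher, against 60.3% of the 1228, with the median of all genes at 0.10. For intron against exon change, DESeq2 size factors moved the split to 177 higher and 174 lower, against 258 and 172. Leaving out 1 library, with the group term alone, gave 37 to 486 exon calls, 5 to 235 intron calls and 0 to 2 calls for intron against exon change. A group left with 1 library was assumed to vary like the other.

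Itgax and Itgb5 kept their direction for exons and introns under each alternative run, and so did Itgad for exons. Itgad introns passed the filter only through the knockdown libraries, so their direction was set beforehand in the filtered runs. The exon calls of Itgax, Itgad and Itgb5 were lost with the group term alone, with the crossed split and with DESeq2 with the group term alone. Those exon calls were also lost with any 1 library left out, where the lowest adjusted p was 0.37 for Itgax, 0.17 for Itgad and 0.83 for Itgb5. The intron calls of Itgax and Itgb5 were lost under the same settings and with any 1 library left out, and that of Itgax also by DESeq2 with the same terms. The intron call of Itgad was lost with the group term alone, the crossed split and 3 of the 4 left-out libraries, all but sh830. With 1 library left out, exon log2 fold changes ran from 1.52 to 2.68 for Itgad, 0.61 to 1.28 for Itgax and 0.42 to 0.61 for Itgb5. The intron value of Itgav, -0.06, became 0.037 with the group term alone, 0.014 with DESeq2 with the group term alone and 0.045 with library sizes from exon counts. Uncalled values changed sign with 1 library left out. For exons they ran from -0.76 to 1.56 for Itgal, -0.068 to 0.17 for Itga4, -0.29 to 0.12 for Itgb1, -0.32 to 0.22 for Itgb7 and -0.18 to 0.31 for Itgav. For introns they ran from -1.14 to 1.33 for Itgam, -0.26 to 0.35 for Itgb2, -0.53 to 0.24 for Itga4 and -0.86 to 0.58 for Itgav. For intron against exon change they ran from -0.99 to 0.86 for Itgam, -0.42 to 0.10 for Itgax, -0.42 to 0.22 for Itgb2, -0.42 to 0.041 for Itga4, -0.44 to 0.13 for Itgb1, -0.71 to 0.45 for Itgav and -0.18 to 0.34 for Itgb5. The cause was not tested. No paired analysis was possible because the knockdown libraries carry no replicate numbers; the library term pairs libraries by intron share, which is not in the labels. The alternatives for regions named after these genes had nothing to be run on.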
